A study of Mus musculus with 8 samples.

Results

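The MHC class II and Langerhans cell genes described here are 8 genes of antigen presentation in the skin: H2-Aa, H2-Ab1, H2-Eb1, H2-DMa, Cd74, Ciita, Cd207 and Itgax. They were chosen by symbol, and every probe set annotated to exactly 1 of these symbols was taken, which gave 16 probe sets for 8 of 18193 measured genes. RNA came from belly skin of 8-month-old mice carrying a transgene for human hurpin (SERPINB13, a serpin and an inhibitor of cathepsin L, a cysteine protease) and of wildtype mice of the same age, neither with a stated treatment. The 4 transgenic animals were females 7 and 84 and males 11 and 17, and the 3 wildtype animals were males 26 and 28 and female 29. Wildtype 29 was hybridised on 2 arrays, which were averaged, so 8 arrays gave 7 animals. The strain, the number of founder lines and the promoter that drives the transgene are not given in the sources used here.

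MHC class II molecules are pairs of an alpha and a beta chain that show peptides from taken-up proteins to CD4 T cells. The invariant chain, Cd74, guides newly made pairs to endosomes, where cysteine proteases trim it, and H2-DM then exchanges its last fragment for a peptide. Ciita is the coactivator that switches the class II genes on, through factors bound to the X and Y boxes of their promoters. In mouse epidermis the resident class II-bearing cells are Langerhans cells, which carry langerin (Cd207), while CD11c (Itgax) marks dendritic cells more widely.

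The promoters of the alpha chain H2-Aa and the beta chain H2-Eb1 are shown because they hold the boxes through which class II genes are known to be switched on. Both sequences are RefSeq's on GRCm38.p6, 5′ to 3′ on the strand of the gene, from 250 bases before the gene's start to 50 after it. The capitals mark the X1 box (CTNGCAAC) first and the Y box (CTGATTGG) second. H2-Aa lies on the minus strand, chr17:34287774-34288073, and H2-Eb1 on the plus strand, chr17:34305617-34305916.
H2-Aa: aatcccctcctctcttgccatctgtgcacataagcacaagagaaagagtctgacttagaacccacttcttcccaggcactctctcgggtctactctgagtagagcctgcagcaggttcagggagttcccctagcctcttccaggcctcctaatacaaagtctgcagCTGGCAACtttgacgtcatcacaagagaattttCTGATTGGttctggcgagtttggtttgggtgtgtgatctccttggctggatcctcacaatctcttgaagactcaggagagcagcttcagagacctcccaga
H2-Eb1: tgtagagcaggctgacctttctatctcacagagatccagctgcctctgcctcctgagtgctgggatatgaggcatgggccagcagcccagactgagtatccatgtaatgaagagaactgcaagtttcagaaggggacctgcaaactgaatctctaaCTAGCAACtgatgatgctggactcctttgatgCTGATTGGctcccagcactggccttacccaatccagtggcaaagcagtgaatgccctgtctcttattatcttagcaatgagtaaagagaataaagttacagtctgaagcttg
In H2-Aa the X1 box began at -84 from the gene's start and the Y box at -51, with 25 bases between them. In H2-Eb1 they began at -94 and -62, with 24 bases between them. The letters were chosen after the sequences had been read and were searched on both strands; the motifs share no bases in either promoter. Of 32851 promoters of 300 bases in the RefSeq table, 3.42% held the X1 letters, 4.1% the Y letters and 0.18% both. Of 11 genes of the class II chains and loading lists with a promoter in the table, 3 held both, the third being the beta chain H2-Eb2. The hits in H2-Aa and H2-Eb1 were fixed in advance by the choice of letters, so this count is no test against the share of all promoters. Neither motif was found in the promoters of Cd207, Itgax or H2-DMa (2 promoters), which says only that these letters are not in these windows. H2-Ab1, Cd74 and Ciita had no entry.

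Values are log2 of the deposited signal intensity plus 21.8, so the floor of the scale is 4.45, and probe sets with a mean below 6.45 over the animals were not tested. Differences are transgenic minus wildtype on this scale, and they understate the change of probe sets near the floor. Probe sets differ in how strongly they hybridise, so a higher level of 1 probe set than of another is not read as more RNA. The most abundant probe set of a gene is the one with the highest mean level. Where probe sets of H2-Aa are set against each other, their gaps are compared between animals. The Gapdh control probe sets gave a 3′ over 5′ signal ratio, a measure of how far the labelled target reaches along the transcript, of 13.8 and 17.2 in the transgenic females 7 and 84, 1.45 and 4.68 in the transgenic males 11 and 17, and 1.03 to 1.14 in the wildtype animals. Every transgenic animal thus had a higher ratio than every wildtype animal, with wildtype 29 averaged from 1.41 and 0.93 on its arrays. A fit with the ratio as a covariate can therefore separate group and target length only in part, through the spread among the transgenic animals. The ratio is set below beside H2-Aa and, among list genes, Tgfb1, Irf4, Zbtb46, C1qa and Cd163. Fits with it are given for H2-Aa, H2-Ab1 and Ciita. Other genes were not set against it. In whole skin, fewer cells of a type and less RNA per cell cannot be told apart. P-values measure the spread between these animals.

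No member was called different between transgenic and wildtype skin. Of the 16 probe sets, 14 passed the level filter, and limma called 0 of them at an adjusted p under 0.05, where 0.0148% of all 27022 probe sets tested were called. At an unadjusted limma p under 0.05 there were 2 (14.3%), an H2-Aa and an H2-Ab1 probe set, against 11.7% of all tested. In none did the groups lie apart, against 11.3% of all tested. The difference was above 0 in 9 of the 14 (50.2% of all tested) and below 0 in 5, and the limma adjusted p ran from 0.385 to 0.958. The median over all 16 probe sets, with the 2 below the filter among them, was 0.15. Over all probe sets tested, each past the filter, the median was 0.0012, so the 2 medians do not cover like sets. Without wildtype 26 the median over the 16 was 0.52, and without wildtype 28 it was 0.011.

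**Figure D1:**
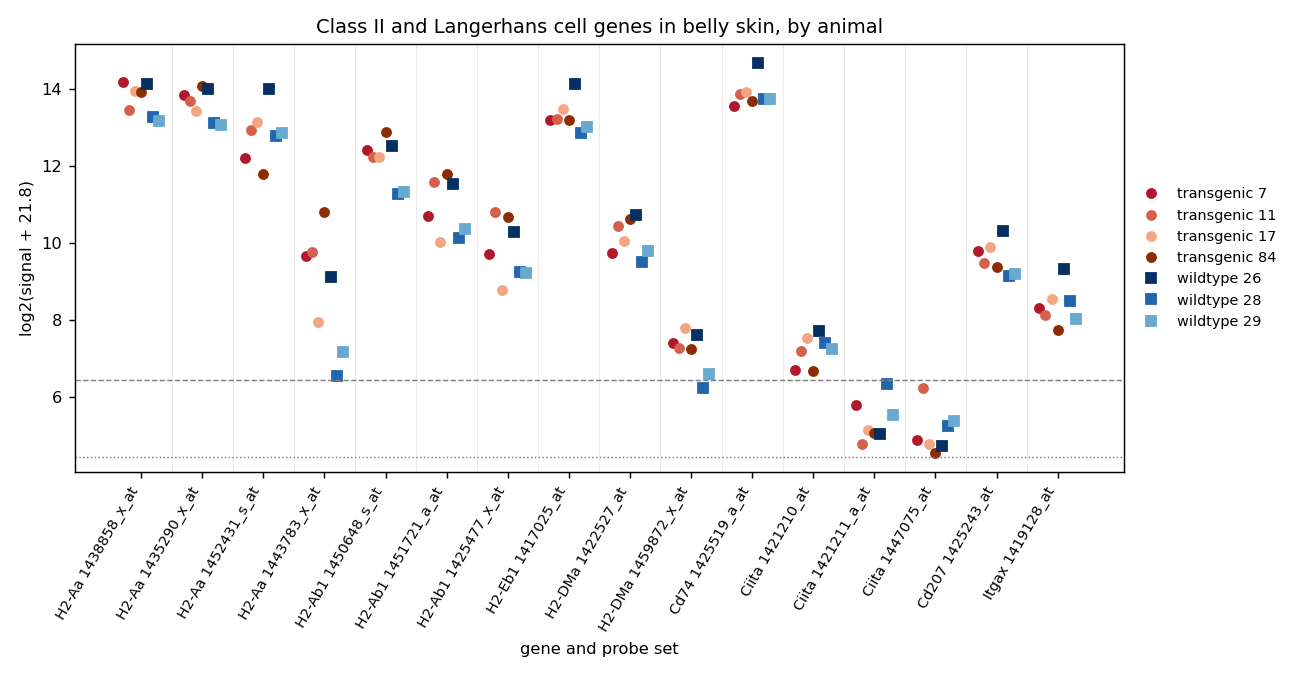
Log2(signal + 21.8) of the 16 member probe sets in each of the 7 animals; circles are transgenic, squares wildtype, the dashed line is the level filter (6.45) and the dotted line the floor (4.45). Wildtype 26 (dark square) lies above the other wildtype animals in each of the 14 probe sets that passed the filter, and the groups overlap in each.

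The alpha chain H2-Aa had 4 probe sets that did not move alike. On the most abundant, 1438858_x_at, the transgenic animals 7, 11, 17 and 84 read 14.18, 13.46, 13.93 and 13.92, and wildtype 26, 28 and 29 read 14.13, 13.27 and 13.18. Transgenic 7 and wildtype 26 were highest, all transgenic animals lay above wildtype 28 and 29, and the groups overlapped through wildtype 26 alone. The means were 13.87 ± 0.30 (SD, n = 4) and 13.53 ± 0.52 (SD, n = 3), a difference of 0.35 (SE 0.25, 95% interval -0.23 to 0.92; limma adjusted p = 0.615). A second probe set, 1435290_x_at, gave nearly the same difference, 0.36 (limma adjusted p = 0.584).

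The other H2-Aa probe sets differed in opposite directions. On 1452431_s_at the transgenic animals read 12.20, 12.94, 13.15 and 11.78 and the wildtype animals 14.00, 12.78 and 12.85, a difference of -0.69 (95% interval -1.59 to 0.20; limma adjusted p = 0.516). Here the transgenic females 7 and 84 were the lowest animals, whereas on 1438858_x_at they lay within or above the range of the rest. On 1443783_x_at, the least abundant of the 4, the transgenic animals read 9.66, 9.78, 7.96 and 10.80 and the wildtype animals 9.12, 6.54 and 7.17. This gave the largest difference of any member, 1.94 (SE 0.73, 95% interval 0.27 to 3.60), with an unadjusted limma p of 0.0275 and an adjusted p of 0.385. Transgenic 7, 11 and 84 lay above all wildtype animals, and transgenic 17 lay below wildtype 26.

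The H2-Aa probe sets were set against each other within each animal. The gap of 1452431_s_at to 1438858_x_at was -1.98 in transgenic 7 and -2.14 in transgenic 84, against -0.52 and -0.79 in transgenic 11 and 17 and -0.50 to -0.13 in wildtype animals. The 2 animals with the widest gaps were those with the highest Gapdh ratios. The gap of 1443783_x_at to the same probe set was -4.52, -3.68, -5.97 and -3.13 in transgenic 7, 11, 17 and 84. It was -5.01, -6.73 and -6.00 in wildtype 26, 28 and 29. Here the narrowest gap was in transgenic 84, with the highest Gapdh ratio, and the widest in wildtype 28, with the lowest. Transgenic 11, with the lowest ratio of the transgenic animals, had the next narrowest gap after transgenic 84. With that ratio, on the log2 scale, added to the fit the difference was 0.10 for 1452431_s_at, -0.06 for 1438858_x_at and 1.22 for 1443783_x_at, each with a limma adjusted p of 1. The part of target length in these differences was not tested beyond that fit, which can separate it from group only in part. By the array maker's naming, _x_at and _s_at probe sets can also detect other or related transcripts, so the H2-Aa values may include signal of similar genes.

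**Figure D2:**
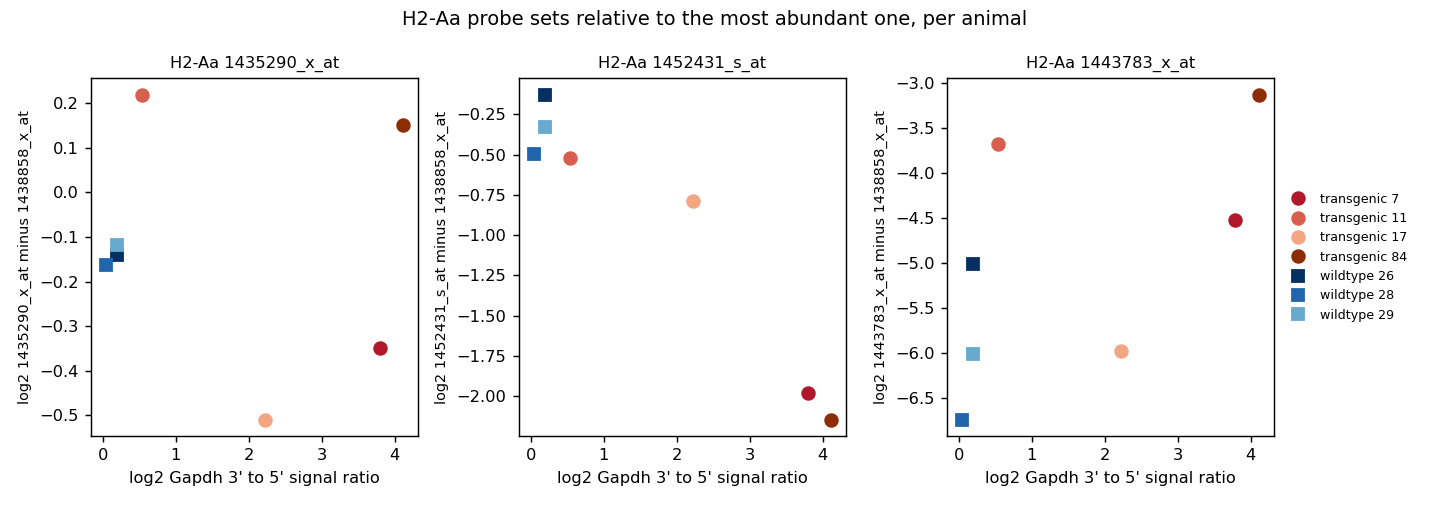
Log2 gap of each further H2-Aa probe set to 1438858_x_at (y axis) against the log2 Gapdh signal ratio, 3′ over 5′ (x axis), 1 point per animal, with circles transgenic and squares wildtype. For 1452431_s_at the gap is -1.98 and -2.14 in the animals with the highest ratios (transgenic 7 and 84); the y axes differ between panels.

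The beta chain H2-Ab1, the partner of H2-Aa, had the second member probe set with an unadjusted limma p under 0.05. On 1450648_s_at, its most abundant probe set, the transgenic animals read 12.42, 12.24, 12.24 and 12.89 and the wildtype animals 12.51, 11.27 and 11.32. The 4 transgenic animals lay close together and well above wildtype 28 and 29, but wildtype 26 lay among them. The means were 12.45 ± 0.30 (SD, n = 4) and 11.70 ± 0.70 (SD, n = 3), a difference of 0.75 (SE 0.31, 95% interval 0.05 to 1.45), with an unadjusted limma p of 0.0385 and an adjusted p of 0.408. In linear signal the range ran from 2440 in wildtype 28 to 7545 in transgenic 84. Without wildtype 26 the difference was 1.15 (limma adjusted p = 0.175, the lowest of any member under any setting tried), and 0.38 once the Gapdh ratio entered the fit.

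The other H2-Ab1 probe sets gave smaller differences with wider intervals. For 1451721_a_at the difference was 0.35 (95% interval -0.72 to 1.41; limma adjusted p = 0.801), and for 1425477_x_at it was 0.41 (95% interval -0.72 to 1.54; limma adjusted p = 0.772). On both of them transgenic 17 was the lowest of all animals, at 10.04 and 8.78, while transgenic 11 and 84 were the 2 highest, at 11.59 and 11.78 on the first and 10.81 and 10.68 on the second. The transgenic animals thus ranged over 1.75 and 2.03 on these probe sets, against 0.64 on 1450648_s_at.

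The beta chain H2-Eb1 read 13.18, 13.23, 13.49 and 13.20 in the transgenic animals and 14.12, 12.84 and 13.02 in the wildtype animals. The transgenic animals spanned 0.30 and lay inside the wildtype range of 1.27. The difference was -0.05 (SE 0.28, 95% interval -0.68 to 0.58; limma adjusted p = 0.958), and it was 0.34 without wildtype 26. The alpha chain that pairs with it, H2-Ea, is known to be disrupted in several inbred strains, and the strain is not given here. Its 3 probe sets lay below the level filter, between 4.54 and 7.33 over the animals, and were not tested. On the most abundant, 1422892_s_at, the difference was -1.11 and the groups did not overlap, with 0.10 and 0.45 on the others.

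Over the 5 measured genes of the class II chains list, 2 differences lay above 0 and 3 below, with a median of -0.05. Over all measured genes with 1 probe set each the median was 0.042, and 55.4% lay above 0. The 3 members were the only genes of this list tested, with 0 called. H2-Ea (-1.11) and H2-Eb2 (-0.30) lay below the filter. The median of this list was 0.34 without wildtype 26 and 0.22 without wildtype 28.

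Of the genes that load the peptide, H2-DMa, the alpha chain of the exchange factor, read 9.75, 10.43, 10.06 and 10.62 in the transgenic and 10.72, 9.52 and 9.79 in the wildtype animals on 1422527_at. All transgenic animals but transgenic 7 lay between wildtype 29 and wildtype 26, and transgenic 7 lay just under wildtype 29. The difference was 0.21 (SE 0.31, 95% interval -0.51 to 0.92; limma adjusted p = 0.825). The second, dimmer probe set, 1459872_x_at, gave 0.62 (95% interval -0.16 to 1.40; limma adjusted p = 0.505), with wildtype 28 at 6.23, below the level filter.

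The invariant chain Cd74, whose last trimming steps depend on cathepsin S and, in some cells, cathepsin L, read 13.56, 13.87, 13.91 and 13.69 in the transgenic animals and 14.66, 13.73 and 13.74 in the wildtype animals. Wildtype 26 alone stood above the rest, and the other 6 animals lay within 13.56 to 13.91. The means were 13.76 ± 0.16 (SD, n = 4) and 14.04 ± 0.53 (SD, n = 3), a difference of -0.29 (SE 0.23, 95% interval -0.81 to 0.23; limma adjusted p = 0.645). Without wildtype 26 the difference was 0.02.

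The loading and invariant chain list had 8 measured genes, 4 above 0 and 4 below, with 0 called and a median of -0.08, which was 0.014 without transgenic 84 and 0.13 without wildtype 26. The gene with the smallest unadjusted p was H2-DMb2, a beta chain of the exchange factor, at 9.68 ± 0.62 (SD, n = 4) in transgenic skin against 8.71 ± 0.05 (SD, n = 3). Its groups did not overlap, the difference was 0.97 and the limma adjusted p was 0.338, but its other probe sets gave 0.02 and 0.42. The next was Lgmn, a lysosomal endopeptidase of antigen processing, at -0.29 (limma adjusted p = 0.624).

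**Figure D3:**
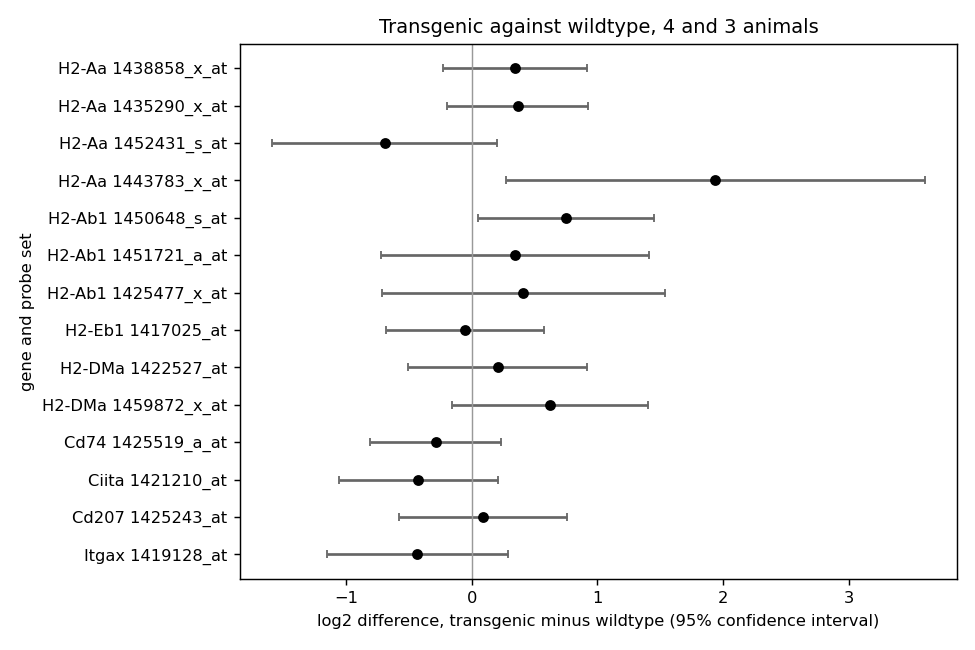
Log2 difference of transgenic minus wildtype animals (points) with its 95% confidence interval from limma (bars) for the 14 member probe sets that passed the level filter. The intervals of H2-Aa 1443783_x_at (0.27 to 3.60) and H2-Ab1 1450648_s_at (0.05 to 1.45) lie above 0 before adjustment; the others include 0.

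The coactivator Ciita was dim. On 1421210_at, its single probe set past the filter, the transgenic animals read 6.72, 7.21, 7.53 and 6.69 and the wildtype animals 7.73, 7.40 and 7.25. Transgenic 7 and 84 were lowest, and transgenic 17 lay within the wildtype range. The difference was -0.43 (SE 0.28, 95% interval -1.06 to 0.21; limma adjusted p = 0.568). With the Gapdh ratio as a covariate it was 0.02. The 2 other Ciita probe sets, 1421211_a_at and 1447075_at, lay below the filter and gave -0.45 and -0.0024, with no test.

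Of the 8 measured class II transcription factors, 4 lay above 0 and 4 below, with 0 called and a median of 0.04. Nfyc, a subunit of the NF-Y complex that binds the Y box, read 10.68, 10.50, 10.30 and 10.70 in the transgenic animals and 9.48, 9.64 and 9.47 in the wildtype animals. Its groups did not overlap, and the means of 10.55 ± 0.19 (SD, n = 4) and 9.53 ± 0.09 (SD, n = 3) differed by 1.02 (SE 0.15; limma adjusted p = 0.134). It passed the threshold without transgenic 11 (limma adjusted p = 0.0434), a fit that called 269 probe sets in all against 4. It also passed with the 8 arrays as separate samples (limma adjusted p = 0.0274), a fit that counts wildtype 29 as 2 animals and called 44 in all. Nfyc has no other probe set annotated to it alone. The other NF-Y subunits of the list lay below 0. Nfya gave -0.16 (limma adjusted p = 0.688), with -1.37 and -0.45 on its other probe sets. Nfyb gave -0.12 (limma adjusted p = 0.811), with -0.04 on its other probe set. Rfx5, a subunit of the complex on the X box, differed by 0.31 (limma adjusted p = 0.496).

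Upstream of Ciita, the 10 measured genes of the interferon gamma list split 5 above 0 and 5 below, with 0 of the 8 tested called. Their median was -0.10, which was 0.11 without wildtype 26. Jak1, a kinase of the receptor, differed by -0.49 on its most abundant probe set (limma adjusted p = 0.436), and its other probe sets ran from -2.04 to 0.30. Cxcl10, a chemokine induced by interferon, differed by -0.45 (limma adjusted p = 0.526). In the co-stimulation and turnover list 7 of 9 measured genes lay above 0, with 0 called and a median of 0.23, which was 0.047 without wildtype 28 and 0.51 without wildtype 26. Marchf1, a ubiquitin ligase that removes class II molecules from the cell surface, gave 0.67 (limma adjusted p = 0.478), with -0.08 and 0.28 on its other probe sets. Cd40, a receptor by which T cells activate presenting cells, gave 0.63 (limma adjusted p = 0.502), with -0.64 and 0.0037 on its others.

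The Langerhans cell lectin Cd207 read 9.80, 9.48, 9.91 and 9.38 in the transgenic animals and 10.31, 9.15 and 9.20 in the wildtype animals. All transgenic animals lay between wildtype 29 and wildtype 26. The means were 9.64 ± 0.25 (SD, n = 4) and 9.55 ± 0.66 (SD, n = 3), a difference of 0.09 (SE 0.30, 95% interval -0.58 to 0.76; limma adjusted p = 0.927). The direction depended on single animals: it was -0.11 without wildtype 28, -0.09 without wildtype 29 and 0.47 without wildtype 26. The integrin chain Itgax read 8.30, 8.13, 8.54 and 7.75 in the transgenic and 9.32, 8.49 and 8.04 in the wildtype animals. Its difference was -0.43 (SE 0.32, 95% interval -1.15 to 0.29; limma adjusted p = 0.616), and -0.08 without wildtype 26.

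Among 11 measured genes of the Langerhans cell list, some of them also made by keratinocytes, 7 lay above 0 and 4 below, with 0 called and a median of 0.12, which was 0.028 without wildtype 28. Axl, a receptor kinase that takes up dying cells, read 10.49 ± 0.30 (SD, n = 4) against 10.96 ± 0.12 (SD, n = 3), with no overlap, a difference of -0.47 and a limma adjusted p of 0.398, and its other probe set gave -0.19. Runx3, the other gene of this list without overlap, went the other way, at 0.39 (limma adjusted p = 0.498), and 0.37 on its other probe set. Tgfb1, a growth factor that Langerhans cells need, gave -0.87 (limma adjusted p = 0.4), and 0.47 on its other probe set. On the first it read 7.13 and 7.61 in transgenic 7 and 84, which had the highest Gapdh ratios, and 8.78 and 8.04 in transgenic 11 and 17. Among 16 measured dendritic cell genes 5 lay above 0 and 11 below, with 0 of the 14 tested called. Their median was -0.33, which was 0.08 without wildtype 26. Zbtb46, a transcription factor of conventional dendritic cells, gave 0.82 (limma adjusted p = 0.397), with -0.15 to 0.38 on its other probe sets. Irf4, a factor of a dendritic cell subset that also acts in lymphocytes, gave -1.39 (limma adjusted p = 0.461), and -0.20 on its other probe set. On the first it read 4.92 and 5.72 in transgenic 7 and 84, and 7.64 and 7.15 in transgenic 11 and 17. Zbtb46 went the other way, with 8.14 and 8.30 in transgenic 7 and 84 and 6.96 and 7.75 in transgenic 11 and 17. The part of target length in these differences was not tested.

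The members spanned a wider range over the wildtype than over the transgenic animals in 9 of the 14 tested probe sets. The share over all tested probe sets was not computed for this count. Wildtype 26 stood above both other wildtype animals in all 14 tested member probe sets, which belong to 8 genes, where this held for 48.3% of all probe sets tested. On the 2 Ciita probe sets below the filter it was the lowest wildtype animal. The step from the mean of wildtype 28 and 29 to wildtype 26 had a median of 1.10 and ran from 0.40 (Ciita 1421210_at) to 2.26 (H2-Aa 1443783_x_at). Wildtype 26 was the highest of all 7 animals in 7 of the 14 (21.7% of all tested), and wildtype 28 the lowest in 6 (14.5%). Animals were singled out here after their values were seen, and no test was made. The repeat arrays of wildtype 29 differed by a median of 0.12 over the tested members, with a range of 0.024 to 0.57, and by 0.19 over all tested probe sets.

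Averaged over the most abundant probe sets of H2-Aa, H2-Ab1, H2-Eb1 and Cd74, each centred on its mean, wildtype 26 lay at 0.60, wildtype 28 at -0.48 and wildtype 29 at -0.44. The transgenic animals lay between them, at 0.08, -0.06, 0.14 and 0.17. The lists of cell markers shared with this profile that wildtype 26 was highest, and differed from it in the order of other animals. The leukocyte list (8 genes) had its highest mean in wildtype 26 (11.57) and its lowest in wildtype 29 (10.38), with the transgenic animals at 10.84 to 11.43. The dendritic cell list read 9.34 in wildtype 26, 8.25 and 8.45 in the other wildtype animals and 8.21 to 8.74 in the transgenic animals, and 12 of its 16 genes were highest in wildtype 26. Transgenic 7 had the lowest mean of this list, at 8.21, whereas in the class II profile it lay above wildtype 28 and 29. The part of cell numbers in the spread of the members was not tested.

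The other cell marker lists also had their highest mean in wildtype 26. The class II transcription factor list had its highest mean in transgenic 11 (9.26), and wildtype 26 read 9.10. The macrophage list (9 genes) read 11.86 in wildtype 26, 11.12 and 10.82 in the other wildtype animals and 11.01 to 11.54 in the transgenic animals. It split 6 above 0 and 3 below between groups, with 0 called and a median of 0.26, which was -0.031 without wildtype 29 and 0.57 without wildtype 26. Cd163, a scavenger receptor, gave 0.86 (limma adjusted p = 0.342), and the complement gene C1qa gave -2.07 (limma adjusted p = 0.357). Its partners in the same molecule, C1qb and C1qc, gave 0.33 and -0.28, with -0.25 and 0.27 on the other probe sets of C1qb. C1qa read 7.93 and 7.80 in transgenic 7 and 84, the animals with the highest Gapdh ratios, and 10.93 and 9.73 in transgenic 11 and 17. Cd163 read higher in transgenic 7 and 84 (12.09 and 12.27) than in transgenic 11 and 17 (11.60 and 11.61). The part of target length in both was not tested. Of 6 measured B cell genes 5 lay below the level filter, among them Ms4a1, Cd79a, Cd79b and Pax5. The B cell list mean was 6.87 in wildtype 26 and 5.85 to 6.47 in the others, with 2 genes above 0 and 4 below, 0 called and a median of -0.10, which was 0.035 without transgenic 84 and 0.28 without wildtype 26. Cd22, the B cell gene past the filter, gave 0.62 (limma adjusted p = 0.455), and -0.41 on its other probe set.

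The T cell list (7 genes) split 6 above 0 and 1 below, with 0 of the 6 tested called. The median of this list was 0.25, which was -0.056 without wildtype 29 and 0.44 without wildtype 26. Its mean was highest in wildtype 26 (8.57) and transgenic 17 (8.52) and lowest in wildtype 29 (7.83). Cd3e, a chain of the T cell receptor complex, gave 0.33 (limma adjusted p = 0.687) and Thy1, also carried by fibroblasts, gave 0.25 (limma adjusted p = 0.526). The leukocyte list split 7 above 0 and 1 below, with 0 called and a median of 0.22, which was -0.029 without wildtype 29 and 0.55 without wildtype 26. Laptm5, a lysosomal protein of blood cells, gave 0.23 (limma adjusted p = 0.737), with -0.51 to 0.30 on its other probe sets, and Cd48, a surface adhesion protein, gave 0.42 (limma adjusted p = 0.593). The list of keratinocyte and dermal genes (8 genes) split 6 above 0 and 2 below, with 0 called and a median of 0.04, which was -0.089 without wildtype 29. Its means also ran from wildtype 29 (13.57) to wildtype 26 (14.33), with Krt5 of basal keratinocytes at -0.16 between groups (limma adjusted p = 0.61) and the cornified envelope gene Lor at 0.30 (limma adjusted p = 0.552; 0.24 and 0.74 on its other probe sets).

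**Figure D4:**
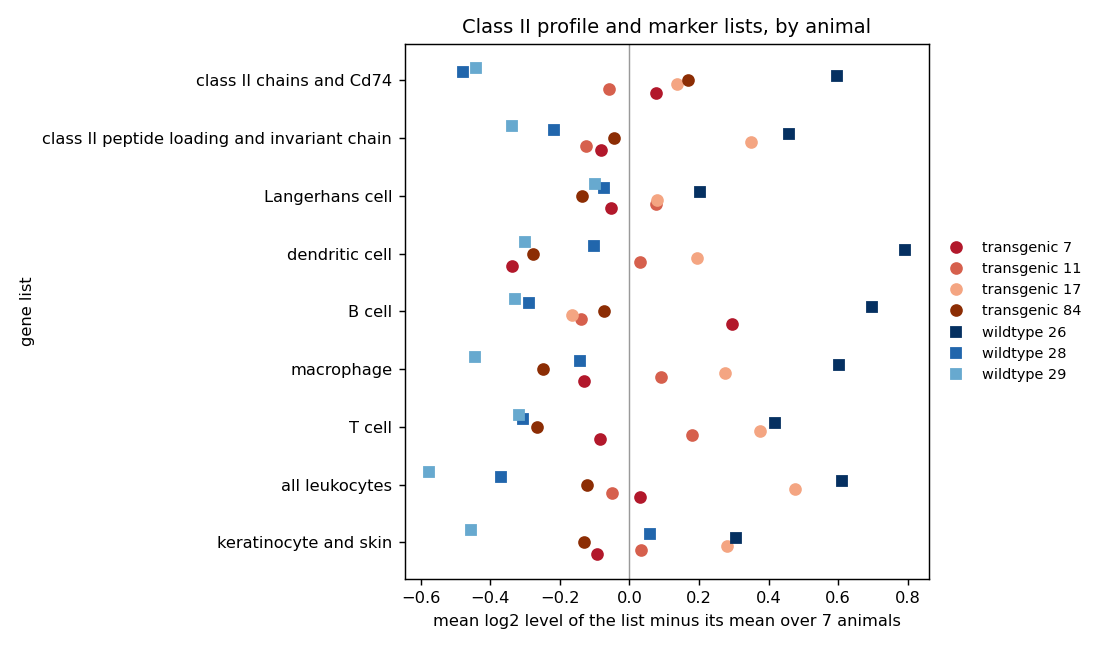
Mean log2 level of each gene list minus its mean over the 7 animals (x axis), 1 point per animal, with circles transgenic and squares wildtype; the top row averages H2-Aa, H2-Ab1, H2-Eb1 and Cd74. Wildtype 26 has the highest mean in each of the rows drawn, and in the top row the other wildtype animals lie at -0.48 and -0.44.

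The genes whose levels followed the class II profile most closely over the 7 animals were picked by Pearson's r among 11317 probe sets that passed the filter and varied at or above the median SD. They were Slc2a3 (a glucose transporter, r = 0.995), Cd209e (a C-type lectin of the DC-SIGN family, 0.989), Rnase1 (a secreted ribonuclease, 0.979), Gprin2 (0.978) and Dleu2 (a non-coding RNA gene, 0.969). Next came Tspan8 (a tetraspanin, 0.967), Bst1 (a surface ectoenzyme, 0.967), Slc2a12 (a glucose transporter, 0.966), Adh7 (an alcohol dehydrogenase, 0.964) and Lce1m (a late cornified envelope protein, 0.962). Cd209e read 11.76 in wildtype 26, 10.23 and 10.32 in wildtype 28 and 29 and 10.94 to 11.19 in the transgenic animals. With 7 animals and so many probe sets compared, these values are a description of likeness and carry no p. Of the members that did not define the profile, Cd207 had the highest r, 0.894, and Ciita 1421210_at had 0.135.

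Whether the group difference depended on sex was asked with an interaction term, and the wildtype group held 1 female. Limma called 0 of the 27022 probe sets (0%), with 772 at an unadjusted p under 0.05, and 0 of the member probe sets, each with an adjusted p of 1 after rounding. The smallest unadjusted limma p of a member was 0.0845 (H2-Aa 1435290_x_at). The interaction, the male minus the female difference, was below 0 in 12 of the 14 member probe sets, from -2.02 to 0.51. The share below 0 over all tested probe sets is not given here, so this count is not read as particular to the members. On H2-Aa 1435290_x_at the transgenic females read 13.83 and 14.08 against 13.06 in wildtype 29, and the transgenic males 13.68 and 13.42 against 13.99 and 13.11 in wildtype 26 and 28. The transgenic females are also the animals with the highest Gapdh ratios, and wildtype 26 is a male, so sex, target length and that animal cannot be told apart in this term.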

How the data were processed

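Total RNA of belly skin was labelled with the Affymetrix one-cycle protocol per the labels. The table deposited by the authors holds linear signal intensity from MAS5 (version not given in the sources used here) per the submitters' processing notes. The 8 arrays had the same mean, 500.003, after the lowest and highest 2% of values were left out, and summed signals of 34785081 to 37857733. The number of arrays limits the precision. Detection calls were not used here. Symbols came from the platform annotation: of 45037 probe sets that were not array controls (64 were), 34945 had 1 symbol, 932 several and 9160 none, and those with several or none were not named.

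The log2 of deposited intensity plus 21.8 (the 20th percentile) was taken, the arrays of wildtype 29 were averaged, and probe sets with a mean below the 40th percentile (6.45) were left out. The remaining 27022 probe sets (13559 genes) were fitted with limma 3.58.1 in R 4.3.3 (lmFit, eBayes with trend, 2-sided, Benjamini-Hochberg over all of them, threshold 0.05), with group alone or with group, sex and their product. The scripts were tested on simulated data. Lists were described by counts and medians, each gene read from its most abundant probe set.

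Named genes were all probe sets of the members, any list gene called, and the 2 of smallest unadjusted p in each list. H2-Ea and the 10 probe sets most like the class II profile were also named. C1qb, C1qc, Runx3, Nfya, Nfyb, H2-Eb2 and the B cell genes below the filter were named after their values were seen. Members and lists were chosen with earlier results of these data known. Alternatives covered normalization, pseudocount, filter, variance model, sex or Gapdh ratio as covariate, the arrays of wildtype 29, the probe set per gene and each animal left out. Summaries used Python 3.11.15, numpy 2.4.6, pandas 2.3.3 and matplotlib 3.10.9.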

Additional observations from a re-analysis of the deposited data

Results flagged for a closer look

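H2-Eb1 stood apart in transgenic 17, at 13.49 on the log2 scale, where the other transgenic animals lay between 13.18 and 13.23. The mean of the peptide loading and invariant chain list was likewise highest in transgenic 17 among the transgenic animals, at 10.91, where the others lay between 10.43 and 10.51. In both, the gap to the nearest animal was large against the range of the 4 (Dixon's criterion at 95%). Both values lay within the range of the wildtype animals. Of the groups of 4 examined, 26 in all, 2 met the criterion, and chance alone meets it in about 1 of 20.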

How the results depend on the processing

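Limma called 0 member probe sets under each of the 20 alternatives that recomputed them, with adjusted p of 0.175 or more, and of 320 recomputed member differences 19 changed sign, 10 of them of the untested Ciita 1447075_at, whose difference was -0.0024. With the Gapdh ratio as a covariate H2-Aa 1438858_x_at was -0.064, H2-Aa 1452431_s_at 0.10 and Ciita 1421210_at 0.020. That ratio was higher in every transgenic than in every wildtype animal, so this fit can separate it from group only in part. With the 8 arrays as separate samples, an alternative chosen after seeing the data, H2-Eb1 was 0.023. With each animal left out in turn, H2-Eb1 ran from -0.30 to 0.34, Cd74 from -0.44 to 0.021, H2-DMa 1422527_at from -0.037 to 0.56, Cd207 from -0.11 to 0.47 and the median over member probe sets from 0.011 (without wildtype 28) to 0.52 (without wildtype 26). Over all tested probe sets the count called, 4, was 10 with 4 times the pseudocount, 2 with the filter at the 60th percentile, 11 with sex as a covariate, 0 with the Gapdh ratio (851 at an unadjusted p under 0.05), 9 with the second array of wildtype 29, 44 with the 8 arrays separate and 0 (without wildtype 28, 1621 at an unadjusted p under 0.05) to 269 (without transgenic 11) with an animal left out. The cause of these changes was not tested. The planned fit with the animal as a random block could not be estimated, since 1 animal alone was repeated. No paired analysis was possible because the groups share no animal numbers. The wildtype group of 3 and the number of arrays limit what could be detected, and dim probe sets such as those of Ciita lie close to the floor.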
